A study of Homo sapiens with 8 samples.

Results

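SETD7 and 8 relatives that share its SET domain (SETD1A, SETD1B, SETD2, SETD3, SETD5, SETD6, SETDB1 and KMT5A) were followed through ribosome profiling of OVCAR3 cells, an established human ovarian carcinoma line. The 9 genes were found by matching the transcripts of each counted region to gene symbols, and are 9 of 20165 regions in the deposited tables. SETD7 was picked because its footprints rose with siTARG1 in these data, so its values in that comparison are given as a description without a test, whereas the others were picked by family name.

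Ribosome profiling sequences the pieces of mRNA that ribosomes protect from nuclease, so a footprint count follows both the amount of an mRNA and how heavily it is translated. In the siRNA experiment, OVCAR3 cells were transfected at 30 nM with siRNA that targets OARD1, which encodes the ADP-ribose hydrolase TARG1 (siTARG1), or with a control (siControl). In the RACK1 experiment, transduced OVCAR3 cells carried a pTRIPZ shRNA against their own RACK1 and re-expressed HA-tagged RACK1, either wild type (RACK1-WT) or mutated at its sites of mono-ADP-ribosylation (RACK1-Mut), both induced with 1 µg/ml doxycycline. All cells were harvested at 48 h, each of the 4 groups has 2 libraries, and the study describes its sequencing experiments as done on independent biological samples. Which of the listed TARG1 siRNAs was used, and whether the transduced cells came from single clones, is not given in the sources used here.

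The SET domain transfers methyl groups from S-adenosylmethionine, in most members to lysine. SETD7 adds a single methyl group to histone H3 and to many other proteins in the nucleus and cytoplasm. The relatives have distinct tasks. SETD1A and SETD1B are catalytic subunits of COMPASS complexes that methylate histone H3 at promoters, SETD2 methylates H3 along transcribed genes, and SETDB1 methylates H3 in silenced chromatin. KMT5A methylates histone H4 and is tied to the cell cycle, SETD6 methylates the NF-kappaB subunit RelA, SETD3 methylates a histidine of actin, and SETD5 is a chromatin regulator whose own enzyme activity is debated.

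Coding footprints summed to between 3100947 and 6604190 per library. OARD1 had 121 and 69.1 normalized counts in the siControl and 5.83 and 6.75 in the siTARG1 libraries, so the knockdown was visible. Of 6 markers of ovarian carcinoma epithelium, all 6 were measured in every library, with KRT8 between 1600 and 3400 CPM (counts scaled to a common total of coding footprints per library), and both KRT8 (log2 fold change -1.03) and KRT18 (-1.24) were called lower with siTARG1. Of 4 markers of other cell types, CD3E had no count, PTPRC at most 2 counts, COL1A1 18.4 to 37.4 CPM, and no region was matched to PECAM1. The part of these shifts in the results below was not tested.

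A short stretch of 3′ UTR found in some members is shown first. The 7-mers of TGAATATA were taken up with earlier results of these data known. With siTARG1, the log2 fold change had a median of 0.12 over genes that carry them in the 3′ UTR and of -0.02 over genes that do not, so the search for them is not independent of that comparison. In the 3′ UTRs of GENCODE release 44 (GRCh37), searched on the mRNA strand for TGAATAT or GAATATA, overlapping matches counted once, 4 of the 9 members hold a match. They are printed 5′ to 3′ with the matching bases in capitals.

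SETD7, chr4:140428689-140428718, minus strand, base 4110 to 4117 of a 3′ UTR of 5625 nt: tcatgatagaaTGAATATAtttaaatgaag
SETD2, chr3:47058187-47058216, minus strand, base 378 to 385 of 657 nt: taatgtatatgTGAATATAttgaaaataat
SETD5, chr3:9519104-9519133, plus strand, base 1340 to 1347 of 2063 nt: ggtaggggtagTGAATATAtgacaggtgta
KMT5A, chr12:123892741-123892769, plus strand, base 502 to 508 of 1650 nt: actgaagtgtaTGAATATtttttaaaaag

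SETD7, SETD2 and SETD5 carry all of TGAATATA, and KMT5A carries the 7-mer TGAATAT. Among genes tested in the siTARG1 comparison, 26% hold such a 7-mer and 6.95% the whole of TGAATATA. Long 3′ UTRs hold it more often. Of genes whose 3′ UTR length lies within 20% of that of SETD7, 60.4% have a match, against 7.91% for the length of SETD2, 29.6% for SETD5 and 26.1% for KMT5A. No member holds a 7-mer of TGAACATA, taken up in the same way, whose carriers had a lower median than other genes (-0.16 against 0.04). It is carried by 19.5% of genes tested. A match in these letters is a description and not evidence that anything binds there.

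SETD7 (chromosome 4, 140417095 to 140527853, minus strand) had few footprints in siControl cells and similar numbers in the other 3 groups. On a common scale over the 8 libraries (counts divided by DESeq2 size factors), its coding count was 35.8 and 38.9 in the siControl libraries, 249 and 248 with siTARG1, 217 and 243 in RACK1-WT, and 234 and 246 in RACK1-Mut cells. The siControl libraries stand alone at the low end, while the remaining 6 lie within 217 to 249. In raw terms the siControl values rest on 35 and 28 footprints. These are 8.32 and 9.03 CPM, with exact 95% Poisson intervals of 5.79 to 11.6 and 6.0 to 13.1 that cover counting error only. The lowest of the other libraries, RACK1-WT replicate 1, had 50.3 CPM (45.0 to 56.0).

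**Figure D1:**
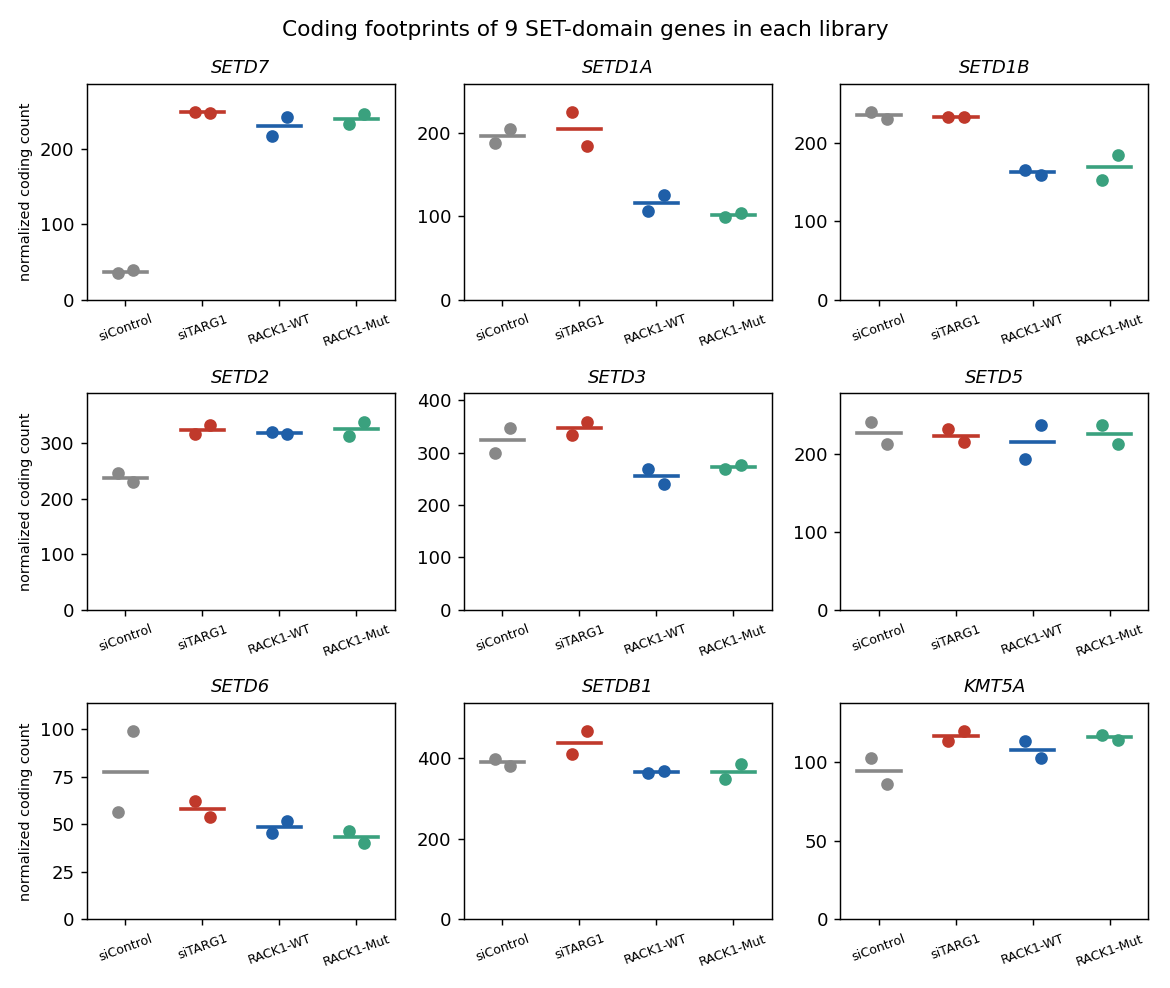
Normalized coding counts (linear axes from 0, scaled over all 8 libraries) of the 9 genes in the siControl, siTARG1, RACK1-WT and RACK1-Mut groups; points are libraries and bars are means of 2. SETD7 is near 37 in siControl and between 217 and 249 in the other groups, and no other member shows a gap of that size.

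Ordered by mean, SETD7 stood at 249 ± 1.06 with siTARG1, 240 ± 8.95 in RACK1-Mut, 230 ± 18.3 in RACK1-WT and 37.4 ± 2.18 in siControl cells (SD, n = 2 libraries each). The means of the upper 3 groups lay closer together than the 2 libraries of RACK1-WT did. In the fit of the 4 siRNA libraries alone, SETD7 went from 30.8 and 33.4 to 214 and 213 normalized counts. The log2 fold change was 2.74 (SE 0.292), or 6.67-fold. Of 12056 genes tested, 43 had a larger log2 fold change. Leaving out any of the 4 libraries gave 2.67 to 2.79. SETD7 was chosen for this rise, so its place and this range are a description and no support for it.

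Against the RACK1 cells, the siControl level of SETD7 was 16.2% of that in RACK1-WT and 15.6% of that in RACK1-Mut cells. The siTARG1 level was 108% and 104%. Among 8685 genes with a mean of at least 50 normalized counts, 80 (0.921%) differed by more between siControl and RACK1-WT than SETD7 did, and 7306 (84.1%) did so between siTARG1 and RACK1-WT. The experiments differ in transduction, doxycycline and transfection, which cannot be told apart here. SETD7 had been chosen for its rise from siControl to siTARG1, whose values enter these ratios, so the ratios were not tested. The control siRNA was given to the siControl cells and to no other group. Its sequence is not given in the sources used here, and its part in the low siControl values was not tested. Fewer mRNA molecules and fewer ribosomes per mRNA also cannot be told apart, since RNA-seq was not analysed here.

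Mutation of the RACK1 acceptor sites, which played no part in the choice of SETD7, gave no detectable change in it. SETD7 had 257 and 288 normalized counts in RACK1-WT and 277 and 293 in RACK1-Mut libraries in the fit of those 4 libraries. The groups overlap. The log2 fold change was 0.07 (SE 0.162, 95% interval -0.25 to 0.38, DESeq2 adjusted p 0.9999), so a change of the size seen with siTARG1 lies outside the interval. Without RACK1-WT replicate 1 the value was -0.01, which has the other sign.

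None of the 8 relatives was called with siTARG1. The DESeq2 Wald test, adjusted over all 12056 genes, called 0 of 8 at an adjusted p under 0.05, where 16.4% of all genes tested were called, 7.18% higher and 9.19% lower. At an unadjusted p under 0.05 there was 1 of the 8, SETD2, beside 26% of all genes. The quasi-likelihood test of edgeR called the same 1, beside 28.8% of all genes. Their log2 fold changes ran from -0.40 to 0.44 with a median of 0.08, beside a median of 0.0032 over all genes. siTARG1 and siControl libraries were fully apart for 3 of the 8 (SETD2, SETDB1 and KMT5A, each higher with siTARG1), and for 62.6% of all genes, 31.2% being higher.

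**Figure D2:**
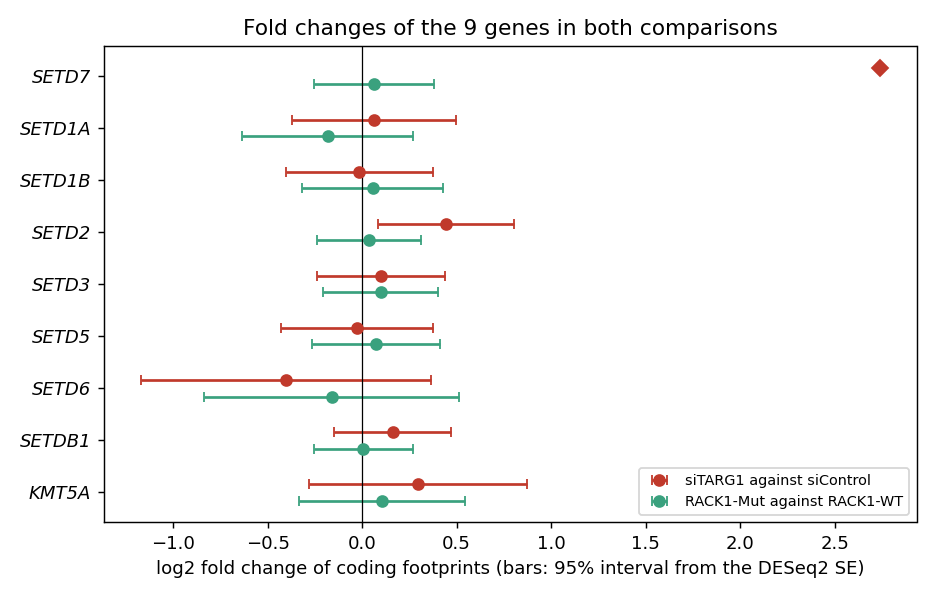
Log2 fold changes of the 9 genes with siTARG1 against siControl (red) and in RACK1-Mut against RACK1-WT (green); bars are 95% intervals from the DESeq2 SE, and SETD7 with siTARG1 (2.74, diamond) has no bar because it was chosen for that value. The other 17 values lie between -0.40 and 0.44.

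SETD2 (chromosome 3, 47057918 to 47205603, minus strand), the methyltransferase of transcribed gene bodies, came nearest to a call. Its libraries had 211 and 197 normalized counts with siControl and 271 and 286 with siTARG1. Both siTARG1 libraries were above both controls. The log2 fold change was 0.44 (SE 0.185), with a DESeq2 adjusted p of 0.0787. The p depended on the fit, at 0.011 in edgeR and 0.0172 with all 8 libraries in a single DESeq2 fit, and 0.253 with the replicate number as a block. Over all alternatives it ranged from 0.011 to 0.551 while the log2 fold change stayed between 0.39 and 0.49. On the common scale SETD2 had 246 and 229 in siControl libraries and 312 to 339 in the other 6, so siControl was again lowest, at 74.6% of RACK1-WT, with a smaller gap than for SETD7. In RACK1-Mut against RACK1-WT it was 0.04 (SE 0.14).

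KMT5A (chromosome 12, 123868679 to 123893900, plus strand), the histone H4 methyltransferase, had 87.9 and 73.9 normalized counts with siControl and 97.4 and 102 with siTARG1. The ranges do not overlap, but the log2 fold change of 0.30 (SE 0.294) had a DESeq2 adjusted p of 0.567. On the common scale its siControl libraries (102 and 86.2) reached the lowest RACK1-WT library (102). The annotation lists 2 pseudogenes named after KMT5A, and reads with many hits were kept by the authors, so its counts are uncertain to that extent.

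SETD5 (chromosome 3, 9439299 to 9520924, plus strand) carries the same 8 bases in its 3′ UTR as SETD7 and SETD2, and its groups could not be separated. It had 207 and 182 normalized counts with siControl and 199 and 184 with siTARG1. The groups overlap fully, and the log2 fold change was -0.03 (SE 0.206, 95% interval -0.43 to 0.38, DESeq2 adjusted p 0.961). Across experiments its group means ran only from 215 to 227.

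SETD1A (chromosome 16, 30968615 to 30995985, plus strand) and SETD1B (chromosome 12, 122241915 to 122270562, plus strand), the COMPASS enzymes, did not change detectably in either comparison. SETD1A had 162 and 175 normalized counts with siControl and 193 and 157 with siTARG1, and SETD1B 206 and 198 against 199.8 and 200.2. The siTARG1 values straddle those of siControl for SETD1A and lie within them for SETD1B. With siTARG1 the log2 fold changes were 0.06 (SE 0.221) and -0.01 (SE 0.199), and in RACK1-Mut cells -0.18 (SE 0.231) and 0.06 (SE 0.191). Both stood lower in the RACK1 than in the siRNA experiment. SETD1A had 184 to 225 normalized counts on the common scale in the siRNA libraries and 98.7 to 125 in the RACK1 libraries. SETD1B had 231 to 240 and 153 to 184. The same direction held for SETD3 (chromosome 14, 99864085 to 99947226, minus strand), the actin methyltransferase, with 300 to 359 against 241 to 276. The experiments did not overlap for any of the 3, nor for SETD6 (53.78 to 98.67 against 39.95 to 51.82). The share of all genes with such a gap was not counted, so it is not shown to be particular to these genes. Experiment and treatment cannot be told apart.

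SETDB1 (chromosome 1, 150898739 to 150937220, plus strand), the silencing enzyme, had 342 and 327 normalized counts with siControl and 351 and 399 with siTARG1. Both siTARG1 libraries were higher, with a log2 fold change of 0.16 (SE 0.157, DESeq2 adjusted p 0.557). SETD3 had 258 and 298 with siControl and 286 and 308 with siTARG1, which overlap, and a log2 fold change of 0.10 (SE 0.174, DESeq2 adjusted p 0.778). SETD6 (chromosome 16, 58549383 to 58557746, plus strand), the RelA methyltransferase and the member with fewest footprints, had 48.3 and 84.6 with siControl and 53.3 and 46.1 with siTARG1. The siControl pair is far apart. Its log2 fold change of -0.40 (SE 0.391) became 0.04 without siControl replicate 2 and -0.77 without siControl replicate 1, so no direction can be read. The annotation lists 1 pseudogene named after SETD6.

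In RACK1-Mut against RACK1-WT cells, 0 of the 9 members were called by DESeq2 over 12520 genes, where 0.0799% of genes were called. There were 0 at an unadjusted p under 0.05, beside 1.64% of all genes, and 0 called by edgeR, beside 0.24%. The log2 fold changes lay between -0.18 (SETD1A) and 0.11 (KMT5A), with a median of 0.06 beside -0.0017 over all genes. RACK1-Mut and RACK1-WT libraries were fully apart for 2 of the 9, SETD1A (lower) and KMT5A (higher), and for 37.6% of all genes, 18.7% being higher. SETD1A had 125 and 148 normalized counts in RACK1-WT and 117 and 124 in RACK1-Mut libraries, so the lower RACK1-WT library lay just above the higher mutant one. KMT5A had 134 and 121 against 138 and 136, again a narrow gap. The other relatives overlapped. SETDB1 had 428 and 436 against 413 and 456, SETD2 379 and 373 against 370 and 402, and SETD6, the least covered, 53.3 and 61.3 against 54.9 and 47.5.

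Levels of different genes were compared per length, as footprint density, the CPM per kb of coding sequence. SETD7 had the highest density of the 9 in 3 groups, with 55.0 ± 0.632 in siTARG1, 48.7 ± 4.33 with RACK1-WT and 51.8 ± 1.84 with RACK1-Mut (SD, n = 2), each above both libraries of SETD3, the next in order. In siControl cells it was the eighth of 9, with 7.88 ± 0.457. SETD3 led there, with 42.1 ± 4.35, and only SETD2 (7.16 ± 0.352) was lower.

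**Figure D3:**
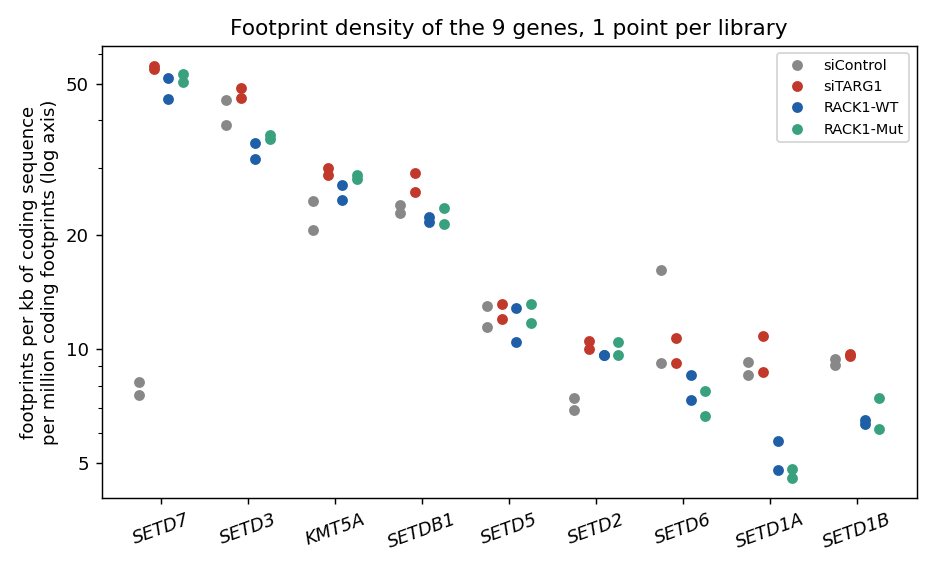
Footprint density, the CPM per kb of coding sequence (log axis) for the 9 genes, ordered by their siTARG1 mean, with 1 point per library coloured by group. SETD7 leads in siTARG1, RACK1-WT and RACK1-Mut libraries and falls to 7.55 and 8.20 in the siControl libraries.

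The upper part of the order of the other members was similar in the 4 groups. SETD3, with 33.3 to 47.3 as group means, was above KMT5A (22.6 to 29.3) and SETDB1 (22.0 to 27.5), and these were above SETD5 (11.6 to 12.6). SETD2 (7.16 to 10.3) and the COMPASS enzymes SETD1A (4.71 to 9.72) and SETD1B (6.42 to 9.63) were low. SETD6 was at place 4 of 9 in siControl (12.6 ± 4.89) and at place 7 in the other groups (7.21 to 9.93). SETD2 was at place 9 in siControl and at place 6 in the other groups. Neighbours in the order overlapped for 0 of 8 pairs in RACK1-WT, 1 in RACK1-Mut, 3 in siControl and 4 in siTARG1 libraries. KMT5A and SETDB1 could not be ordered in either siRNA group, nor neighbours among SETD2, SETD6, SETD1A and SETD1B with siTARG1. In siControl the same held for SETD6 and SETD5 and for SETD1B and SETD1A. Counted over exons in place of coding sequence, SETD7 was sixth in siTARG1, RACK1-WT and RACK1-Mut and ninth in siControl, since its 3′ UTR is 5627 of 7365 nt in the authors' models and holds few footprints.

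Footprints outside coding sequence set SETD5 apart. Its 5′ UTR held 418 of 2291 footprints over the 8 libraries, a share of 18.2% (exact 95% Clopper-Pearson interval 16.7% to 19.9%, counting error only). The share was 9.58% and 23.9% in siControl, 19.7% and 17.7% in siTARG1, 19.5% and 17.3% in RACK1-WT, and 17.2% and 22.4% in RACK1-Mut libraries. The siControl libraries hold both the lowest and the highest value, so the groups cannot be separated. Over 6066 genes with at least 1000 coding footprints in all, the median share was 1.22%, and 1.78% of genes exceeded SETD5. Both SETD5 transcripts matched in GENCODE release 44 hold 3 ATG triplets in the 5′ UTR, each opening a frame that closes before the coding sequence. Such triplets are not particular to SETD5. SETD1A holds 3, of which 2 open a frame that closes there, and SETD1B transcripts hold 2, 3 and 0, all closing there. Any part of them in the SETD5 share was not tested. For SETD5 that annotation gives 5′ UTRs of 539 and 190 nt and the authors' model 435 nt.

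**Figure D4:**
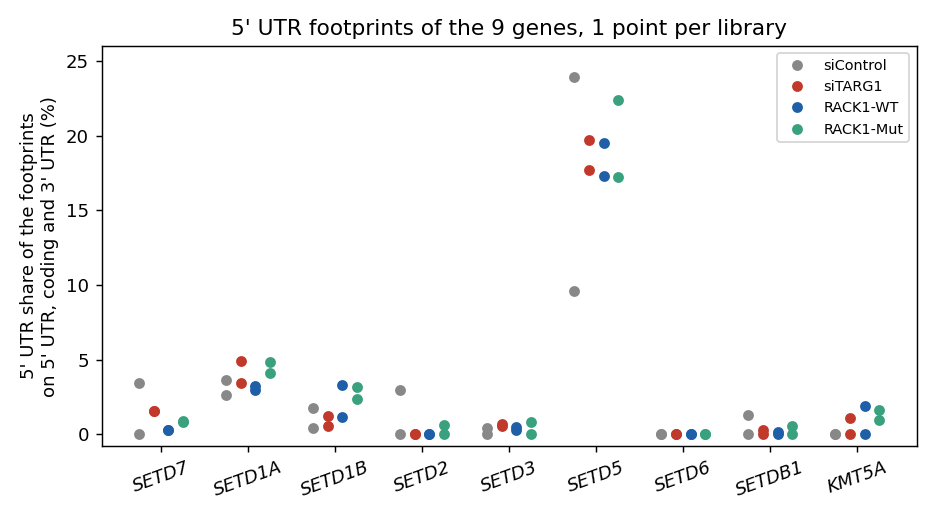
Share of the footprints on 5′ UTR, coding sequence and 3′ UTR that lay in the 5′ UTR (percent, linear axis), for the 9 genes with 1 point per library coloured by group. SETD5 lies between 9.58% and 23.9%, and every library of the other 8 genes is at or below 4.92%.

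The share of the COMPASS enzyme SETD1A was 3.73% (48 footprints) and that of SETD1B 1.69%. SETD7 had 14 5′ UTR footprints, or 0.832%, over a modelled 5′ UTR of 637 nt. SETD6 had 0 of 459, for which 3 counts, taken as the limit of a count of 0, allow a share of up to 0.654%, and the exact 95% Clopper-Pearson interval has its upper bound at 0.8%. In the 3′ UTR, KMT5A held 2.13% and SETD7 1.25% of their footprints. Of the 21 SETD7 footprints there, 7 came from siControl replicate 1, which had 35 in the coding sequence, and none from siControl replicate 2.

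The genes whose pattern over the 8 libraries was most like that of SETD7 were sought by Pearson r of log2(normalized count + 1) among 8685 genes. The leading 5 were PDHX, a subunit of the pyruvate dehydrogenase complex (r = 0.997), SLC35A5, of the nucleotide sugar transporter family (0.997), ENPP5, of the nucleotide pyrophosphatase family (0.995), CD46, a regulator of complement (0.993), and CREG1, a secreted glycoprotein (0.992). All 5 were low in siControl. PDHX had 80.9 and 86.2 normalized counts there and 315 to 373 in the other 6 libraries. CD46 had 262 and 317 against 923 to 1020. The siTARG1 log2 fold changes of the 5 were 2.14, 1.43, 1.56, 1.71 and 1.10, all below the 2.74 of SETD7, and in RACK1-Mut cells they lay between -0.09 and 0.15.

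**Figure D5:**
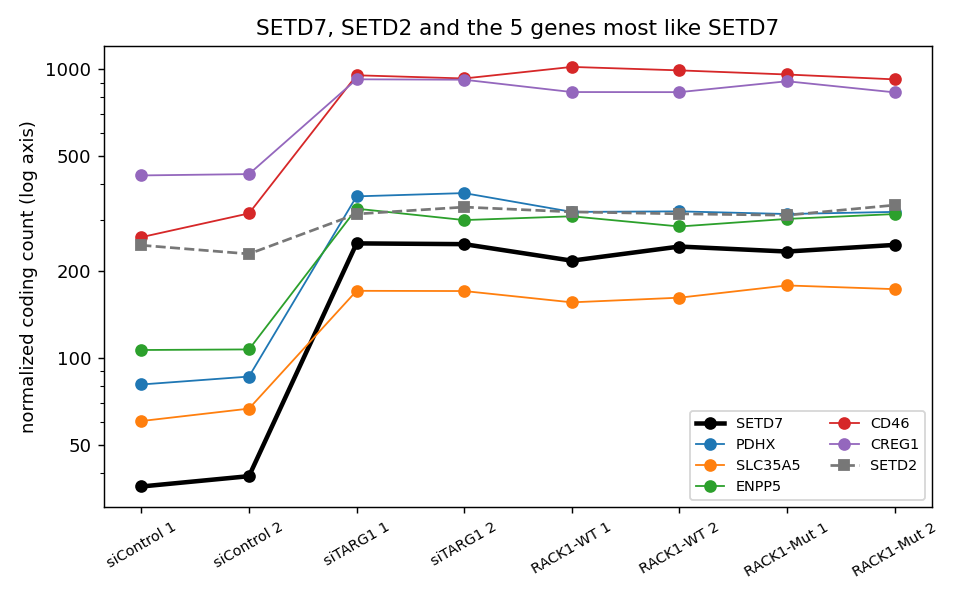
Normalized coding counts (log axis) in each of the 8 libraries for SETD7 (black), SETD2 (dashed grey) and the 5 genes with the highest Pearson r with SETD7. All 7 genes are lowest in both siControl libraries and nearly level over the other 6.

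These correlations describe 8 libraries from only 4 groups, and they share the difference between siControl and siTARG1 that chose SETD7. A rank correlation picked 0 of the same 5 genes. The annotated 3′ UTRs of all 5 hold a 7-mer of TGAATATA and none holds a 7-mer of TGAACATA. This is no independent support, since the 7-mers were taken up with the siTARG1 comparison known and the 5 genes share its difference. Among genes with a 3′ UTR of like length, the share with a 7-mer of TGAATATA was 15.5% for PDHX, 40.4% for SLC35A5, 31.2% for ENPP5, 29.1% for CD46 and 20.3% for CREG1. Among the members themselves, r with SETD7 was 0.972 for SETD2, which ranked 49 of 8684 genes, and 0.788 for KMT5A. It was 0.00984 for SETDB1 and below 0 for SETD1A, SETD1B, SETD3, SETD5 and SETD6. Besides SETD7, the members with a match in the sequences printed above are SETD2, KMT5A and SETD5, the last with an r of -0.141. Since r and the 7-mers both depend on the siTARG1 comparison, no link between them can be read from these members. Among 471 genes with a 3′ UTR of 5000 to 6500 nt, the median siTARG1 log2 fold change was 0.10 in the 297 with a match and -0.0039 in the 174 without. For the 7-mers of TGAACATA it was -0.07 in the 253 with a match and 0.13 in the 218 without. Both sets of 7-mers were taken up with this comparison known, so these medians are no independent support. Any part of such matches in the SETD7 values was not tested.

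Beyond the 9 members, 26 further SET-domain genes were examined, and 25 passed the count filter. With siTARG1, 2 were called higher and 2 lower by DESeq2, where 16.4% of all genes were called, and 8 by edgeR, where 28.8% were, with a median log2 fold change of 0.04. The H3 methyltransferase of heterochromatin SUV39H2 rose by 1.55 (SE 0.502, DESeq2 adjusted p 0.0164) and KMT2B, of the COMPASS family, by 0.52 (SE 0.164, 0.0122). The Polycomb enzyme EZH2 changed by -0.67 (SE 0.22, 0.0186) and the H4 methyltransferase KMT5B by -0.75 (SE 0.24, 0.014). The share of the list called was thus near that of all genes. SUV39H2 rests on 16.7 and 17.9 against 41.6 and 59.6 normalized counts.

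Of 9 partner subunits of SETD1A, SETD1B and SETDB1, all tested, the COMPASS core subunit WDR5 was higher with siTARG1 (0.74, SE 0.215, DESeq2 adjusted p 0.00541) and the COMPASS subunit DPY30 lower (-0.93, SE 0.188, DESeq2 adjusted p 1.89e-05). DESeq2 called these 2 of 9 and edgeR called 2, beside 16.4% and 28.8% of all genes. Of 18 lysine demethylases, which remove methyl groups, KDM5A was called higher (0.49) and PHF8 (-0.80), KDM3A (-0.63) and KDM5B (-0.34) lower by DESeq2. These 4 of 18, and the 7 of 18 called by edgeR, stand beside 16.4% and 28.8% of all genes. Of 12 reported non-histone substrates of SETD7, 11 were tested and 3 called by DESeq2, where 16.4% of all genes were called, 9.19% lower. The transcription factor subunits HIF1A (-0.81) and TAF10 (-0.65) and the deacetylase SIRT1 (-1.02) were called lower by DESeq2, beside a median of 0.0051 for the list. By edgeR, 3 genes of this list were called, beside 28.8% of all genes. In RACK1-Mut cells DESeq2 called 0 genes of these 4 lists, with 0 at an unadjusted p under 0.05 and 0 by edgeR.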

How the data were processed

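The 8 deposited tables hold footprint counts, for which the authors used Plastid. The headers name reads of 26 to 36 nt and an offset of 14 nt from the 5′ end, but the methods give another length, from the 3′ end. They cover exons, 5′ UTR, coding sequence and 3′ UTR of merged regions (hg19/GRCh37, GENCODE release 24). Before counting, the authors discarded rRNA reads with Bowtie 1.1.2 and aligned to transcripts with TopHat2 2.1.1, versions from the submitters' processing notes, keeping many hits per read. Whether identifiers were collapsed is not stated. The authors' RPKM columns were not used. Symbols came from GENCODE release 44 on GRCh37, by transcript, for 19612 of 20165 regions (97.3%).

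Coding counts of each 4-library comparison were fitted with DESeq2 1.42.0 in R 4.3.3 (Wald test, at least 10 summed counts, Benjamini-Hochberg over all genes tested, called at 0.05). The fit was tested on simulated data. Alternatives were edgeR 4.0.16, TMM factors, other filters, exon counts, a replicate block, all 8 libraries together and leaving out each library. Values marked ± are SDs of 2 libraries. The members, lists and 7-mers were chosen with earlier results of these data known. Named genes are the 9 members, OARD1, list genes called in a comparison and the 5 genes most like SETD7. p-values rest on a spread that the fits estimate from these libraries over many genes, and not on the libraries of each gene alone. Replicates were not copies, with a chi-square per gene of 1.68 to 3.13 within groups. The promoter sequences at hand are of another build and were not used.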

Additional observations from a re-analysis of the deposited data

How the results depend on the processing

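With 2 libraries per group and few footprints on some members, intervals are wide. The alternatives were planned. SETD7 with siTARG1 had a log2 fold change of 2.67 to 2.79 with any library left out and 2.60 with exon counts, which adds its UTRs. As SETD7 was chosen for this rise, these values are a description only. Its RACK1-Mut value ranged from -0.01 to 0.15 with a library left out and reversed to -0.014 without RACK1-WT replicate 1. The 8 relatives with siTARG1 gave 1 call, SETD2, with edgeR (log2 fold change 0.44) and with all 8 libraries in 1 fit, 0 with the replicate block and 0 with any library left out. The 9 members in RACK1-Mut cells gave 0 calls throughout. Over all genes, 1974 and 10 were called, and edgeR gave 3470 and 30, the replicate block 1125 and 6, and leaving out a library 564 to 744 and 1 to 3. In those fits the lone library of a group is assumed to vary like the other group. The deviations of same-numbered libraries had correlations of 0.0307 and 0.0832 over genes. The labels give only a replicate number, so the block rests on that number. A shared preparation of same-numbered libraries was not tested.

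Some values changed sign, most of them near 0, with SETD6 (-0.40 with siTARG1) as the exception. With siTARG1, SETD5 was 0.0329 with exon counts. With a library left out, the siTARG1 values ran from -0.095 to 0.205 for SETD1A, -0.044 to 0.00725 for SETD1B, -0.0128 to 0.202 for SETD3, -0.116 to 0.0651 for SETD5 and -0.773 to 0.0391 for SETD6. In RACK1-Mut cells they ran from -0.0829 to 0.186 for SETD1B, -0.0234 to 0.0951 for SETD2, -0.0662 to 0.226 for SETD5 and -0.0657 to 0.0763 for SETDB1. None of these was called in any fit, and the cause was not tested. Library totals or TMM factors in place of size factors left the SETD7 ratios across experiments within the spread of the libraries.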
